A study of Arabidopsis thaliana with 18 samples.

Results

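In roots of Arabidopsis thaliana, 75 of the 22810 probe sets on the ATH1 array had a low mean level after phosphate starvation and a low mean level again after phosphate was given back. They were selected on root values alone. The mean of the starved arrays had to lie at least 1 log2 unit below the mean of the mock arrays, the highest starved array had to lie below the lowest mock array, and the replete mean had to lie at least 0.8 below the mock mean. A total of 320 probe sets met the starved limits, and 80 of them met the replete limit too. Control probe sets, MTPA1, ZIP9, S8H, BGLU42, AT1G73600 and genes with CYP symbols were left out, which removed 5 probe sets and left the 75 members.

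The platform table gave a single gene for 38 members, the study's ranking table gave identifiers for 6 more, 1 member detects the peroxidase genes AT2G18150 and AT2G18140 together, and 30 had no gene name here. The 44 members with a name of 1 gene lay on all 5 chromosomes, with 7 to 13 on each.

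All plants were wild type, of the Col-0 ecotype, and grew on rock wool in aerated MGRL hydroponic medium with full nutrients for 20 days. Mock plants then stayed in full medium for 10 days. Starved plants spent those 10 days in medium in which MES buffer took the place of sodium phosphate. Replete plants were starved in the same way and then had 3 days in full medium. At sampling, replete plants were 33 days old and the other groups 30 days, and no mock plants of 33 days were measured, so recovery and age cannot be told apart. Roots and shoots were taken separately, with 3 arrays of biological replicates for each of the 6 groups.

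Phosphate limits plant growth in many soils, and roots short of it change their architecture, release phosphatases and organic acids, and replace membrane phospholipids. Many of the transcripts that respond return soon after phosphate is resupplied. Root cell walls are remodelled by peroxidases, pectin methylesterases and proteases that act in the apoplast, the space outside the plasma membrane. Some chitinases also act in the apoplast, and receptor-like kinases sense the wall and microbes there. Uptake of phosphate, iron, zinc and sulfate is linked, so that a shortage of one nutrient alters transporters and enzymes for the others.

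The treatment and organ labels were checked on genes that are not members. Of 13 listed phosphate starvation genes 1 had a probe set named in the platform table. This was the phosphatase gene AT1G13750 (PAP1), higher by 1.68 in starved than in mock roots (SE 0.18, limma adjusted p = 1.1e-05). The root marker PYK10 lay between 11.91 and 12.30 on root arrays and between 7.41 and 8.42 on shoot arrays. Green-tissue markers (3 of 8 listed genes had a probe set) averaged 4.81 to 5.55 per root array and 12.30 to 12.62 per shoot array. Of the root hair markers, EXPA7 and EXPA18 (2 of 7 measured) fell by 1.20 and 1.43 from starved to replete roots (limma adjusted p = 0.00042 and 5e-06). Relative to mock they stood at 0.42 and 0.67 in starved roots and at -0.78 and -0.76 in replete roots. Their part in the results below was not tested. In bulk roots, fewer cells of a type and less RNA per cell cannot be told apart.

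The low replete level rested mainly on 2 of the 3 replete root arrays. Relative to the mean of the mock arrays, the median member stood at -2.16, -2.01 and -1.32 on starved arrays 1 to 3, and at -0.29, -1.76 and -1.43 on replete arrays 1 to 3. Replete array 1 was thus close to the mock level for the typical member, while the other two replete arrays were nearer to the starved level. Replete array 1 was the highest of the replete arrays in 69 of 75 members, and it lay below every mock array in 30, against 75 for array 2 and 74 for array 3. All 3 replete arrays lay below all 3 mock arrays in 29 members, and in 11.1% of all probe sets. In the other 46 members 2 of the replete arrays did, so the statement that a transcript stayed low does not hold on every array for these. Without replete array 1 the limits were met by 129 probe sets, 74 of the 75 members among them, and without replete array 2 by 40, of which 38 were members.

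**Figure D1:**
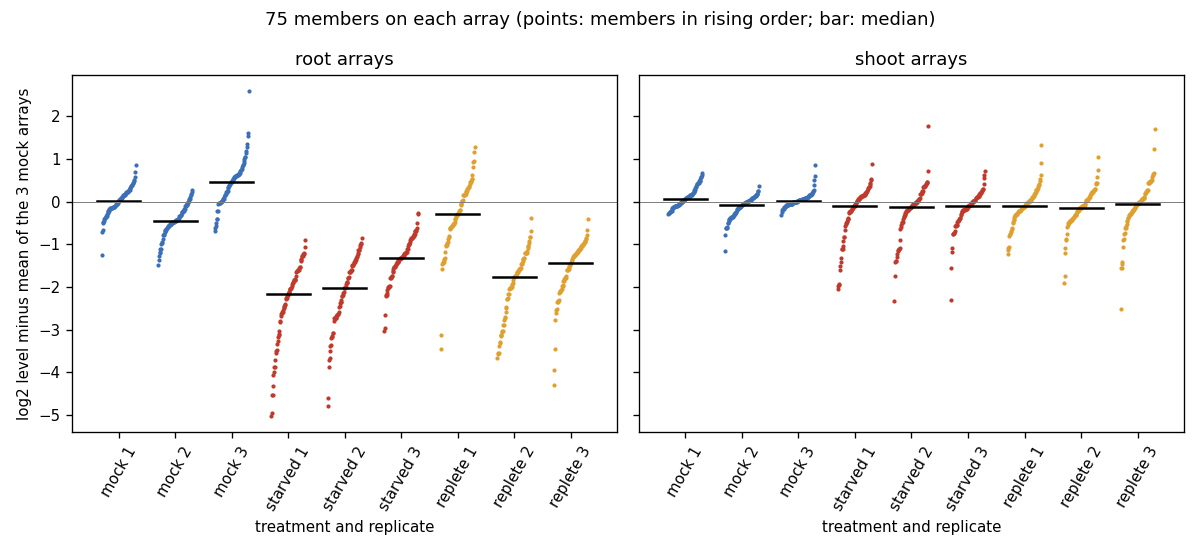
Log2 level of each of the 75 members minus its mean on the 3 mock arrays of the same organ, for every root array (left) and shoot array (right); points are members in rising order and bars are medians. The root medians are -2.16, -2.01 and -1.32 on the starved arrays and -0.29, -1.76 and -1.43 on the replete arrays, and the shoot medians lie between -0.14 and 0.06.

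The members also moved together within the groups. Starved array 3 was the highest starved array in 64 of 75 members, mock array 2 the lowest mock array in 55 and mock array 3 the highest in 50. The limits used these root arrays, and counts by single array, here and above, were not made over all probe sets. Starved array 3 exceeded both other starved arrays by at least 1 in 25 members and in 173 of the 22810 probe sets. The median SD within a group was 0.54 in mock, 0.50 in starved and 0.82 in replete roots for the members, against 0.12, 0.14 and 0.13 for all probe sets. Replete array 1 exceeded both other replete arrays by at least 1 in 38 members and in 225 of the 22810 probe sets. In shoots the 3 starved arrays were each the highest starved array in 24 to 26 members, and replete array 3 was the highest replete array in 39. The median level over all probe sets was 5.92 to 5.98 on the root arrays, which the quantile normalization sets to be nearly equal.

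Over the 75 members, starved minus mock ranged from -4.09 to -1.0 with a median of -1.90, and replete minus mock from -3.60 to -0.81 with a median of -1.13. The medians over all probe sets were 0.033 and -0.013. In the replete mean, 64 members stood above their starved mean and 11 at or below it, and the median member had regained 40.7% of its starvation difference. Replete array 1 entered these means. Without it the median replete minus mock was -1.61. In 46 members replete arrays 2 and 3 were both at or below the highest starved array. These values chose the members and are given as a description, with no test.

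The members nearest to the starved limit were AT3G60420, of the phosphoglycerate mutase family, at -1.0, AT4G24380 at -1.04 and the dirigent protein gene AT4G11190 at -1.10. Just outside it were AT4G18650 at -0.99, AT3G45680 at -0.98 and AT1G20380 at -0.98, of which the last had a replete minus mock difference of -2.57. At the replete limit, AT3G60420 and AT3G48450 at -0.81 and AT5G37990 at -0.84 were just inside, and AT4G38410 at -0.79, AT1G49000 at -0.78 and AT3G10720 at -0.78 just outside.

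**Figure D2:**
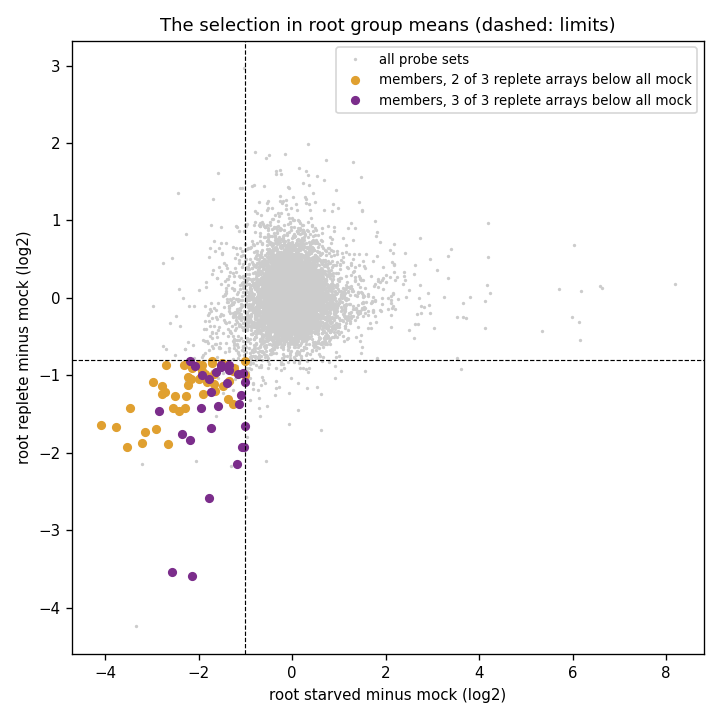
Root starved minus mock (horizontal, log2) against root replete minus mock (vertical, log2) for all 22810 probe sets, with the 75 members in colour by how many replete arrays lay below all mock arrays. Both axes use the same mock arrays, and members with all 3 replete arrays below mock (29) include those with the lowest replete minus mock differences, down to -3.60.

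Genes for proteins of the cell wall and apoplast included the largest starved minus mock difference among members with a name, but not the largest replete minus mock difference. The 10 of them had a median starved minus mock of -2.35, from -3.78 to -1.10, and a median replete minus mock of -1.31. The subtilisin-like protease gene AT4G10540 stood at log2 levels of 7.51, 7.26 and 8.41 on the mock arrays, 2.77, 2.94 and 6.14 on the starved arrays and 8.26, 4.18 and 5.75 on the replete arrays. Starved arrays 1 and 2 lay below 3.58, the level under which the lowest 25% of probe sets in starved roots fell, and replete array 1 fell within the mock range. Starved minus mock was -3.78 (SE 0.82), and no fold is given because levels this low have no detection call.

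AT5G39580, a class III peroxidase, which uses hydrogen peroxide in the wall, measured 8.55, 6.75 and 9.42 in mock, 3.70, 4.53 and 6.10 in starved and 8.40, 5.76 and 6.29 in replete roots. The mock arrays themselves differed by over 2 log2 units, and replete arrays 2 and 3 were below all of them. The difference between starved and mock was -3.46 (SE 0.68). The peroxidase pair AT2G18150 and AT2G18140 behaved otherwise, with mock values of 7.11, 7.28 and 7.29, starved values of 5.95, 6.27 and 6.04, and replete values of 6.42, 6.08 and 5.08. Here every replete array was below every mock array, and the shared probe set cannot say which gene was measured.

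Of 2 chitinase family genes, AT2G43620 was at 8.56, 7.45 and 8.97 in mock, 4.26, 4.94 and 6.33 in starved and 8.35, 5.21 and 6.21 in replete roots. AT4G01700 had mock values of 10.16, 9.85 and 10.81, starved values of 8.36, 9.01 and 9.66, and replete values of 10.23, 8.62 and 9.14. In both, replete array 1 overlapped the mock arrays and the other replete arrays did not. Pectin was represented by both an enzyme and an inhibitor family. The pectin methylesterase gene ATPMEPCRB (AT4G02330) had a starved minus mock difference of -2.92 (SE 0.76), and AT3G47380, of the pectin methylesterase inhibitor family, one of -2.0 (SE 0.42). Their replete minus mock differences were -1.70 and -1.05.

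The GDSL lipase gene AT1G29670 had regained 68.1% of a starvation difference of -2.71 (SE 0.32), the highest share of any member, and its replete minus mock was -0.86. CEP3, a cysteine endopeptidase, had the tightest replete arrays of this group at 6.13, 6.14 and 5.95, all below the mock arrays at 7.41, 7.01 and 6.46 and above the starved arrays at 5.31, 5.31 and 5.66. AT4G11190, a dirigent protein, of a family that guides the coupling of lignan and lignin precursors, had a replete mean below its starved mean, with differences from mock of -1.26 and -1.10.

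**Figure D3:**
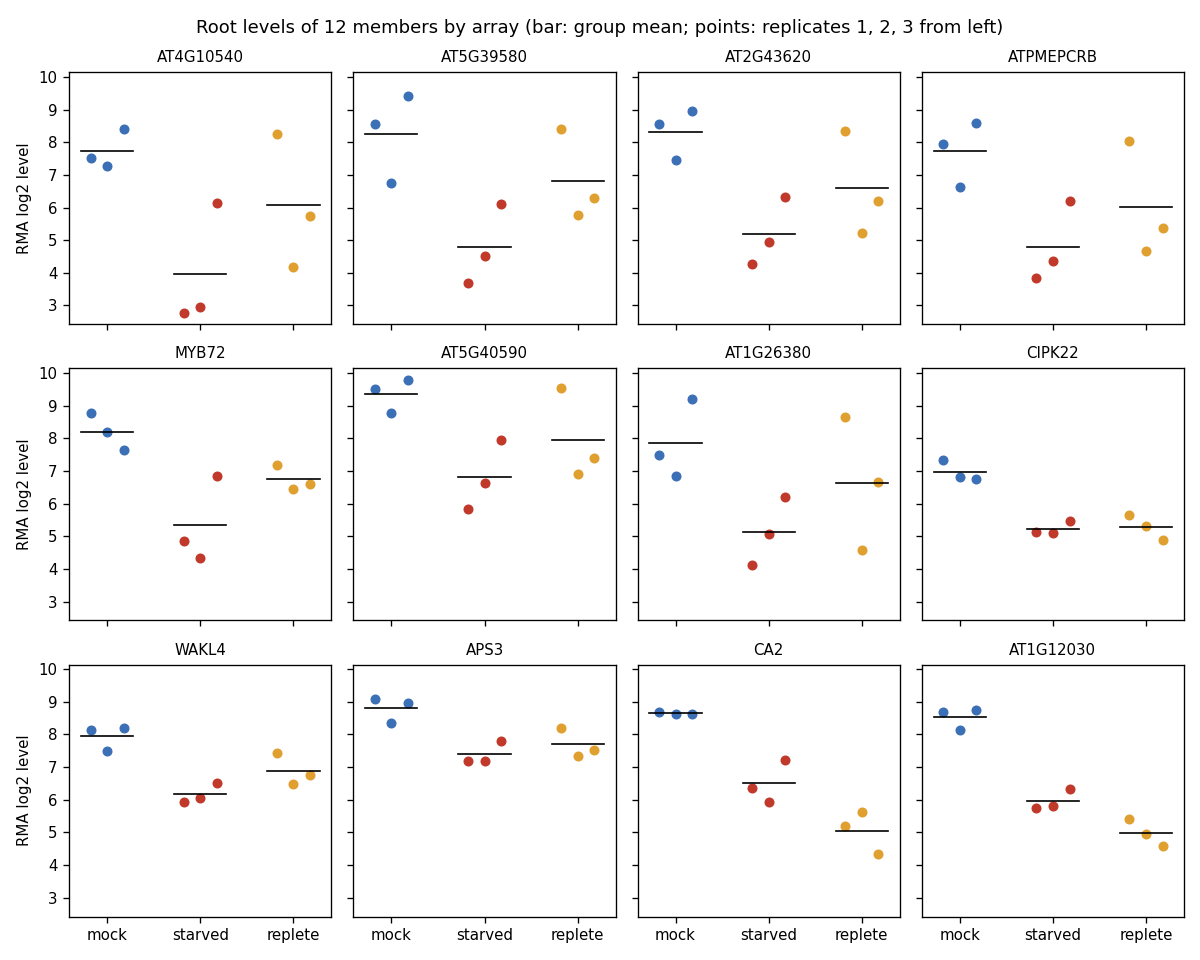
RMA log2 level (vertical) of 12 named members on the 3 mock, 3 starved and 3 replete root arrays (points, replicates 1 to 3 from left), with bars for group means. Replete array 1 is within or near the mock range in AT4G10540, AT5G39580, AT2G43620, ATPMEPCRB, AT5G40590 and AT1G26380, while in CA2 and AT1G12030 all replete arrays are below all starved arrays.

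CA2 (AT5G14740), a beta carbonic anhydrase, which interconverts carbon dioxide and bicarbonate, had the lowest replete minus mock difference of all members. Its root levels were 8.70, 8.62 and 8.63 in mock, 6.37, 5.92 and 7.23 in starved and 5.20, 5.61 and 4.35 in replete plants. All replete arrays were below all starved arrays, which were below all mock arrays. Replete minus mock was -3.60 (SE 0.28), a factor of 12.1, and starved minus mock was -2.14. Its mean in mock shoots was 11.54. The green-tissue markers in roots averaged 4.95, 5.50 and 4.81 in mock, 4.82, 5.24 and 5.02 in starved and 5.33, 5.30 and 5.55 in replete plants. Among these markers LHCB4.1 was higher by 1.23 in replete than in starved roots (SE 0.16, limma adjusted p = 4.7e-05), PRK differed by -0.59 (adjusted p = 0.02) and RCA by 0.46 (adjusted p = 0.066), and their part in the CA2 difference was not tested.

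AT1G12030, of a family with a domain of unknown function, showed the same order of groups. It measured 8.70, 8.14 and 8.76 in mock, 5.75, 5.82 and 6.33 in starved and 5.42, 4.96 and 4.58 in replete roots. Replete minus mock was -3.55 (SE 0.31) and starved minus mock -2.57. With CA2, the peroxidase pair and AT4G11190, it made up the 4 members with a gene name among the 11 whose replete mean was at or below the starved mean. The other 7 had no gene name here, and among them 260462_at had a starved minus mock of -1.03 and a replete minus mock of -1.92.

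Among other enzymes, the neighbouring genes AT1G26380 and AT1G26390, which encode FAD-linked oxidoreductases of the berberine bridge enzyme family, were both members and were the only members within 3 genes of each other among those with a locus. AT1G26380 had 7.49, 6.86 and 9.19 in mock, 4.13, 5.06 and 6.21 in starved and 8.65, 4.57 and 6.66 in replete roots. AT1G26390 had 4.20, 3.92 and 6.46 in mock, 2.36, 2.99 and 3.43 in starved and 5.01, 3.11 and 3.84 in replete roots. In both, mock array 3 was the highest array in mock by over 1 log2 unit and replete array 1 overlapped mock. Both genes are related in sequence, and shared hybridisation of their probes was not tested.

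AT2G30670, a tropinone reductase-like dehydrogenase, had replete values of 5.06, 3.09 and 3.35, all below its mock values of 5.29, 5.45 and 6.28, with a replete minus mock of -1.84. AT5G37990, of a methyltransferase family, had a starved minus mock of -1.73 and a replete minus mock of -0.84. In the sulfate pathway, APS3 (AT4G14680), an ATP sulfurylase, which activates sulfate for assimilation, measured 9.08, 8.35 and 8.96 in mock, 7.18, 7.19 and 7.81 in starved and 8.20, 7.35 and 7.53 in replete roots. Neither later group overlapped mock, and the differences from mock were -1.40 and -1.10 (SE 0.23). APS4, another ATP sulfurylase gene and no member, was higher in starved roots, by 0.70 (SE 0.11, limma adjusted p = 0.00053).

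Signalling genes were 8 of the members, with a median starved minus mock of -1.76 and 4 of them with all replete arrays below mock. CIPK22, a protein kinase that binds calcineurin B-like calcium sensors, regained least of them. It was at 7.34, 6.81 and 6.76 in mock, 5.13, 5.10 and 5.48 in starved and 5.66, 5.30 and 4.90 in replete roots. The starved and replete arrays overlapped each other and were far below mock, with differences of -1.73 and -1.68 (SE 0.19). WAKL4, a wall-associated kinase-like protein, stood at 8.12, 7.50 and 8.19, then 5.92, 6.04 and 6.52, then 7.42, 6.48 and 6.75, with replete array 1 only just below the lowest mock array.

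The receptor kinase gene AT1G05700, with leucine-rich repeats outside the cell, had differences from mock of -1.48 and -1.14, and the protein kinase gene AT1G51620 of -1.67 and -1.12. The cysteine-rich repeat secretory protein genes AT5G48540 and AT1G63550 had starved differences of -2.27 and -1.74. AT4G11340, of the TIR-domain disease resistance family, was at -1.90. AT3G48450, of a family related to the immune regulator RIN4, regained 62.8% of a difference of -2.19, and its replete arrays at 8.01, 7.49 and 7.31 were nevertheless all below its mock arrays at 8.68, 8.20 and 8.37.

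Proteins with cysteine and histidine-rich C1 domains, a plant family of largely unknown function, gave 4 members. Starved minus mock was -2.56 for AT5G40590, -2.35 for AT2G37810, -2.22 for AT2G44370 and -2.08 for AT2G28270. Replete minus mock was -1.42, -1.76, -1.03 and -0.88 in that order. All 4 were root transcripts, with mock means of 7.33 to 9.36 in roots and 2.30 to 3.46 in shoots, and in AT2G37810 and AT2G28270 every replete array was below every mock array.

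MYB72, a transcription factor of the root response to iron deficiency and to beneficial microbes, was the member with the largest starvation difference among those whose replete arrays were all below mock. Its levels were 8.78, 8.19 and 7.64 in mock, 4.86, 4.32 and 6.86 in starved and 7.19, 6.44 and 6.60 in replete roots. Starved array 3 was higher than replete arrays 2 and 3, so starved and replete overlapped while both stayed below mock. Starved minus mock was -2.86 (SE 0.44) and replete minus mock -1.46. AT1G29600, with CCCH zinc fingers, had differences from mock of -1.65 and -1.20.

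Transporter families gave AT5G19700, a MATE efflux carrier, and AT4G00910, of the aluminium-activated malate transporter family. AT5G19700 was at 6.64, 6.76 and 6.09 in mock, 4.45, 4.03 and 4.32 in starved and 5.09, 4.92 and 6.10 in replete roots. It was 1 of 6 members in which replete array 1 was not the highest, the others being CA2, PP2-A4, CEP3 and the unnamed 260623_at and 253657_at. AT4G00910 had differences of -1.94 and -0.94. PP2-A4, a lectin related to phloem proteins, had tight arrays, with 6.28, 5.37 and 5.86, then 4.01, 3.84 and 3.83, then 4.48, 4.22 and 4.56, and none of the groups overlapped.

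The late embryogenesis abundant (LEA) family, known from seeds and from drying tissue, gave AT3G53770 and AT3G02480. In AT3G53770 the differences from mock were -1.93 and -0.99. AT3G02480 measured 5.14, 4.58 and 4.26 in mock, 2.82, 2.87 and 3.55 in starved and 3.49, 3.06 and 3.23 in replete roots, with differences of -1.58 and -1.40. Its starved and replete arrays overlapped each other and not mock.

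Of 11 other members with a name, AT5G55620, AT3G55790 and AT2G25510 had the largest starvation differences, at -3.22, -2.79 and -2.78, and replete differences of -1.87, -1.14 and -1.25. AT3G18250 was at -2.01 in starved roots, AT2G33850 at -1.53, AT1G53620 at -1.35 and AT1G48980 at -1.25. The 30 members with no gene name ranged from -4.09 to -1.01 in starved minus mock and from -2.58 to -0.81 in replete minus mock, and 10 of them had all replete arrays below mock. The largest starvation difference of all was that of 266282_at, with 8.82, 8.51 and 9.56 in mock, 3.94, 4.37 and 6.31 in starved and 9.92, 5.41 and 6.63 in replete roots. Replete array 1 was above all mock arrays in this probe set. Next among the unnamed was 266281_at, at -3.54 and -1.93.

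Shoot arrays were not used in the selection, but the mock root arrays were. A member had to stand high enough in mock roots to be able to fall there. The mock levels in both organs are therefore a description, with no test. In mock plants the median member was at 7.32 in roots and 4.69 in shoots. The median over all probe sets was 5.95 in both organs. In 59 members the root mean was higher, by over 2 log2 units in 41. Such counts over all probe sets were not made. AT5G40590 and AT3G55790 were the named members with the widest gaps, at 9.36 and 9.79 in roots against 2.30 and 2.87 in shoots. In 16 members the shoot mean was higher, and 10 of these were over 2 log2 units higher in shoots. They included AT2G25510, at 12.58 in shoots and 9.07 in roots, CA2, the GDSL lipase gene AT1G29670, at 10.46 and 6.77, and AT5G55620, at 9.58 and 6.88. In mock shoots 25 members lay in the lowest 25% of all probe sets, where a further fall could hardly be measured.

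**Figure D4:**
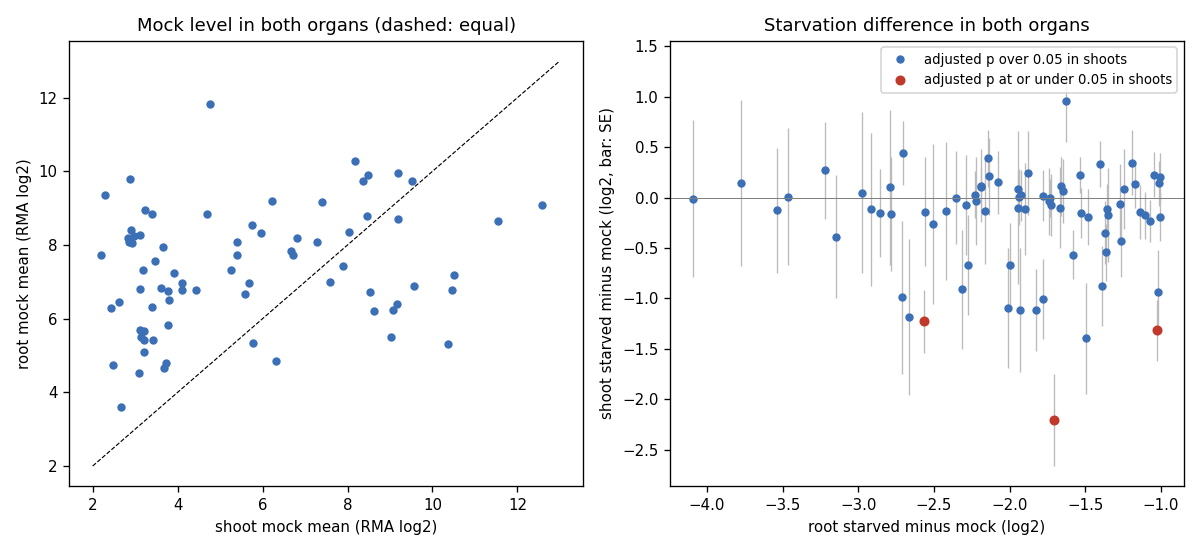
Left, mean RMA log2 level of each of the 75 members in mock shoots and mock roots, with a dashed line of equal levels (59 members above it, 16 below). Right, starved minus mock in roots (the selected values) and in shoots (log2, bars are SE), with the 3 members at an adjusted p at or under 0.05 in shoots in red; the shoot median is -0.10.

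In starved shoots the median member was 0.10 lower than in mock shoots, with a range of -2.20 to 0.95, and the median over all probe sets was 0.0. None of the 75 was called with a limma adjusted p of at most 0.001, a threshold at which 0.0132% of all probe sets were lower. At an unadjusted p under 0.05 the same fit had 9 members lower, where 10.0% of all probe sets were lower, and 1 higher, and with the looser adjusted threshold of 0.05 it had 3 lower, which is 4.0% of the members beside 2.01% of all probe sets. Differences of 57 members were within 0.5 in either direction. In 9 of the 75 members the starved mean was lower by at least 1, a larger share than the 112 of all 22810 probe sets. In 0 members it was higher by at least 1. All starved shoot arrays were below all mock shoot arrays in 16 of the 75 members, a larger share than the 12.2% of all probe sets. They were above them in 5 of the 75, a smaller share than the 9.8% of all. The SE of a member's shoot difference was 0.18 to 0.82 with a median of 0.39, and 0.12 for the median probe set, since the fit pools the spread of root and shoot arrays. With shoot arrays alone the median SE was 0.16, and 0 members were called at 0.001 and 3 at 0.05.

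AT1G12030 was the named member among those 3. Its shoot levels were 5.74, 5.13 and 6.35 in mock, 4.23, 4.33 and 4.99 in starved and 5.41, 4.54 and 4.69 in replete plants. The starved arrays were below the mock arrays, as in roots, and the replete arrays overlapped both. Starved minus mock was -1.22 (SE 0.31, limma adjusted p = 0.038), with adjusted p from 0.0013 to 0.17 over the alternative fits.

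The unnamed probe set 251677_at had 4.97, 3.55 and 5.56 in mock, 2.72, 2.37 and 2.38 in starved and 4.08, 2.79 and 3.15 in replete shoots, a starved minus mock of -2.20 (SE 0.46, limma adjusted p = 0.013). In 260462_at the shoot values were 9.95, 9.02 and 9.58 in mock, 8.41, 8.23 and 7.97 in starved and 8.43, 7.77 and 7.0 in replete plants. Starved minus mock was -1.31 (SE 0.30, limma adjusted p = 0.023) and replete minus mock -1.78 (adjusted p = 0.011), so that starved and replete shoots were both below all mock shoots, as in roots.

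Between starved and replete shoots 1 member rose past the adjusted threshold of 0.001, beside 0.105% of all probe sets. It was the LEA family gene AT3G02480, with 4.06, 3.37 and 3.63 in mock, 3.30, 3.14 and 2.92 in starved and 5.01, 4.73 and 4.35 in replete shoots. The replete arrays were above all others. Replete minus starved was 1.58 (SE 0.24, limma adjusted p = 0.00092) and replete minus mock 1.01 (adjusted p = 0.038), which is 1 member called higher at 0.05 beside 1.23% of all probe sets. In replete roots the same gene was 1.40 below mock. The call for replete minus starved held at 0.001 without shoot mock array 1 (limma adjusted p = 0.00087) and was lost in 13 of the 18 fits that left out 1 array. These were the fits without any other shoot array, at adjusted p from 0.001 to 0.0059, and those without root mock array 2, starved arrays 1 and 2, or replete arrays 2 and 3, at 0.0012 to 0.0017.

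At 0.05, 2 members were lower in replete than in starved shoots (4.72% of all probe sets), 253657_at by -1.42 (SE 0.24, limma adjusted p = 0.0019) and 257715_at by -0.86 (SE 0.21, adjusted p = 0.019). Both were below mock in replete shoots as well, by -1.22 and -1.09, and in starved shoots they differed from mock by 0.20 and -0.23. With 260462_at they were the 3 members lower in replete than in mock shoots at 0.05, beside 1.53% of all. All 3 were also among the 11 members whose root level was lower in replete than in starved plants. At 0.001 the count against mock was 0, where 0.00877% of all probe sets were lower, with 7 members lower at an unadjusted p under 0.05, where 10.6% of all probe sets were lower, and 2 higher.

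Members that stood high in shoots were not lower there after starvation as a rule. Among the 16 with a higher level in mock shoots than in mock roots, starved minus mock in shoots had a median of -0.10 and ran from -1.12 to 0.95. CA2 had 11.31, 11.79 and 11.53 in mock, 11.78, 11.92 and 12.10 in starved and 11.91, 11.96 and 12.01 in replete shoots, a replete minus mock of 0.42 (SE 0.28, limma adjusted p = 0.46). In AT1G26390 starved shoot arrays 1 and 2 were low, at 4.37 and 4.93, and array 3, at 6.33, was within the mock values of 6.82, 6.00 and 6.16. AT1G26380 had starved minus mock of -0.99 (SE 0.76, limma adjusted p = 0.58), with all starved arrays below mock. APS3 stayed between 8.20 and 9.04 on all shoot arrays.

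Lists of related genes held few members, and few of the listed genes had a probe set with a name, so the lists place few members in a pathway. Of 35 iron genes 7 had a probe set named in the platform table, and the member MYB72, named through the study's ranking table, is on the list too. In starved against mock roots 2 of the 7 were lower past the adjusted threshold of 0.001 (0.706% of all probe sets). AT3G12900 (S8H), the coumarin hydroxylase, was at -2.23 (SE 0.17). It met the starved limits but not the replete limit, with a replete minus mock of -0.57, and is also among the genes left out by name. The other was BGLU42, at -1.59, which met all limits of the selection and was left out only by name. Both calls therefore rest on values that the limits used, and are given as a description. Of 16 zinc genes 3 were measured. The vacuolar zinc transporter gene MTPA1 and the gene ZIP9 met all limits of the selection and were left out of the members only by name. Relative to mock, MTPA1 stood at -3.35 in starved and -4.24 in replete roots, and ZIP9 at -1.31 and -2.17. These values are a description, with no test. The other gene, bZIP19, differed from mock by -0.06 in starved and 0.07 in replete roots. Of 12 sulfate genes 2 were measured, APS3 and APS4. Of 15 nitrate and ammonium genes 1 was measured, NRT2.5, at -0.59 in starved roots (adjusted p = 0.023), and of 12 lignin genes 1, HCT, at -0.24 (adjusted p = 0.23). The list of 11 wall-associated kinases had no probe set named in the platform table and held the member WAKL4.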

How the data were processed

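RNA of roots and shoots was measured on 18 Affymetrix ATH1 arrays. The deposited values were log2 levels. The authors made them in R with affy, whose version is not given in the sources used here. Its steps corrected the background, made the quantiles of the arrays equal and combined each probe set's probes through median polish. Values ran from 1.33 to 13.45 and were used without further change. Detection could not be examined, as scanner files were not used here, and precision is limited by the number of arrays.

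The platform table gave the gene names. It named 1 gene for 13513 of 22810, several for 503 and none for 8794. Of these names 13436 matched the RefSeq table of assembly TAIR10.1. The study's ranking table gave identifiers, and no values, for 6 further members. A member unnamed here may still have a gene, and levels of different probe sets are not comparable as amounts. No sequence or coordinate is shown, because none was used here.

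The limits were applied to group means and array values of the 9 root arrays. All root values of the members therefore describe the selection and were not tested. The linear model had 1 mean per group over the 18 arrays, fitted by lmFit and moderated by eBayes (limma 3.58.1, R 4.3.3), and left 12 residual degrees of freedom, which moderation raised to 16.5. The SE given with a difference is that of this fit. The shoot contrasts were tested two-sided with Benjamini-Hochberg adjustment over all probe sets, and a call was an adjusted p at or under 0.001. The fit was tested on simulated data.

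The members and the gene lists were chosen with earlier results of these data known. Members with 1 gene in the platform table were named for the largest starvation differences, the lowest replete minus mock differences, a place on a list, a shoot contrast at 0.05, a neighbouring member, nearness to a limit, or a place in a functional class. The classes, and the members named by probe set or through the study's ranking table, were chosen after their values were seen. Alternatives were other scalings (reference genes, spike-ins, quantile within an organ), a replete limit of -1, other thresholds, shoot arrays alone, leaving out the lowest 25% of probe sets, an eBayes trend, array weights, a replicate block, and each array left out in turn.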

Additional observations from a re-analysis of the deposited data

How the results depend on the processing

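The rule found 83 probe sets with arrays centred on reference genes, 80 with quantile normalization over root arrays and 117 with arrays centred on spike-ins, and 75, 74 and 75 of the members were among them. A replete limit of -1 left 49. Leaving out 1 root array in turn gave 40 to 139, with 139 without mock array 2, 129 without replete array 1 and 40 without replete array 2. In shoots, 0 members were called in starved against mock, 1 in replete against starved and 0 in replete against mock. At an adjusted p at or under 0.05 these counts were 3, 3 and 4, and with shoot arrays alone at 0.05, an alternative chosen after seeing the data, 3, 7 and 3. Array weights gave 1 for starved against mock and 2 for replete against mock. The call of AT3G02480 in replete against starved was absent, leaving 0, with shoot arrays alone, without the lowest 25% of probe sets (where AT3G02480 itself was left out) and with Bonferroni adjustment. With quantile normalization over shoot arrays the 1 call was a different probe set, 253657_at, which was lower, and AT3G02480 had an adjusted p of 0.0026 in limma. Leaving out 1 array gave 0 to 2 for that contrast and 0 for the other shoot contrasts. The fit with shoot arrays alone had fewer arrays and its own estimate of the spread, and the cause of these changes was not tested. Centring on spike-ins moved the median member to 0.41 in replete against starved shoots and to 0.17 in replete against mock shoots, from 0.04 and -0.08. The same centring moved the median of all probe sets to 0.36 and 0.24 in these contrasts, and to -0.23 in starved against mock roots and -0.09 in replete against mock roots. The medians kept within the spread between arrays under every other setting tried.

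Replicate numbers were not treated as pairs. Same-numbered arrays of 2 treatments deviated together with correlations from -0.11 to 0.40 in roots and from -0.09 to 0.45 in shoots, over 0.1 in 4 of 9 and 6 of 9 pairs. With the replicate block the counts in shoots were 0, 1 and 0, as without it.

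With 3 arrays per group, differences in shoots of the size of a member's SE could not be resolved. This SE was up to 0.82 in the fit that pools root and shoot arrays, and 0.09 to 0.45 with shoot arrays alone. Low levels have no detection call.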
